A study of Mus musculus with 8 samples.

Results

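The promoters of xenobiotic and steroid metabolism genes were examined in GS (germline stem) cells, a culture of mouse spermatogonia that keeps stem cell activity. They were the autosomal genes with promoter cytosines in the deposited table whose symbols begin with *Cyp*, *Ugt*, *Gst* (a, m, o, p, t or z), *Aldh*, *Adh*, *Hsd*, *Sult* or *Akr* followed by a family member. This rule gave 38 of the 9224 genes and 627 of the 203645 cytosines, which lie in 378 CpGs once the strands are joined. The pattern also matched 1 gene on the X chromosome, which was left out. Methylation was measured by reduced representation bisulfite sequencing (RRBS), in which DNA is cut by the enzyme MspI at CCGG, converted with bisulfite and sequenced, so that the share of reads that keep a cytosine is its methylation level. Of the 8 lines, 1 library each, 4 came from control-F1 mice born after natural mating (lines 29, 37, 44 and 45) and 4 from ICSI-F1 mice born after intracytoplasmic sperm injection with wild-type sperm (lines 11, 17, 20 and 21). The labels give every line as wild-type, B6 and untreated. The labels describe the libraries in 2 wordings, which split them into library set 1 (lines 29, 37, 11 and 17) and library set 2 (lines 44, 45, 20 and 21), and what this split stands for is not given. All lines were grown in the same medium, which contained beta-estradiol, progesterone and cholesterol with FGF2 and GDNF, and all were derived from CD9+ spermatogonia of mature testes by magnetic sorting. For RNA, the study describes removing the fibroblasts that GS cells grow on by plating on gelatin, and no such step is stated for DNA.

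These genes code for the enzymes that make fat-soluble molecules more polar. Cytochromes P450 (CYP) add oxygen, alcohol and aldehyde dehydrogenases and aldo-keto reductases pass between alcohol, aldehyde and acid, and glutathione transferases (GST), glucuronosyltransferases (UGT) and sulfotransferases (SULT) attach a polar group. Many members are expressed mainly in liver, kidney or gut, and the same families make and break down steroids, sterols, bile acids and retinoic acid. In the testis, retinoic acid made by ALDH1A enzymes starts the differentiation of spermatogonia, and CYP26 enzymes degrade it.

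In these GS cells the 38 promoters fell into a low and a high class, and no promoter differed between ICSI-F1 and control-F1 lines at a false discovery rate of 0.05. The mean level over the 8 lines was under 10% at 25 promoters, between 10% and 80% at 4 and 80% or more at 9. The highly methylated promoters were those of *Cyp4a12a*, *Cyp2c55*, *Cyp21a1*, *Cyp2w1*, *Hsd17b2*, *Cyp2j8*, *Sult5a1*, *Sult2a4* and *Cyp26c1*. They made up 23.7% of these genes, against 8.15% of all 9224 genes, while 65.8% were under 10%, against 73.7% of all genes. The intermediate promoters were those of *Gstt1*, *Adh6b*, *Gstm1* and *Cyp26a1*. At all 4 the cytosines inside CCGG had a higher mean than the others, from 22.9% against 10.3% at *Adh6b* to 31.1% against 4.21% at *Gstt1*. The promoters differed in how much of them was read, from 1 cytosine for *Cyp4a12a*, *Cyp21a1*, *Cyp2j6* and *Akr1a1* to 126 for *Aldh1a2* (median 7.5, and 13 over all genes). They also differed in where they were read, among the highly methylated from 48 to 54 bases upstream at *Cyp2w1* to 995 at *Cyp4a12a*. Distance from the start site was not held equal between the classes.

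**Figure D1:**
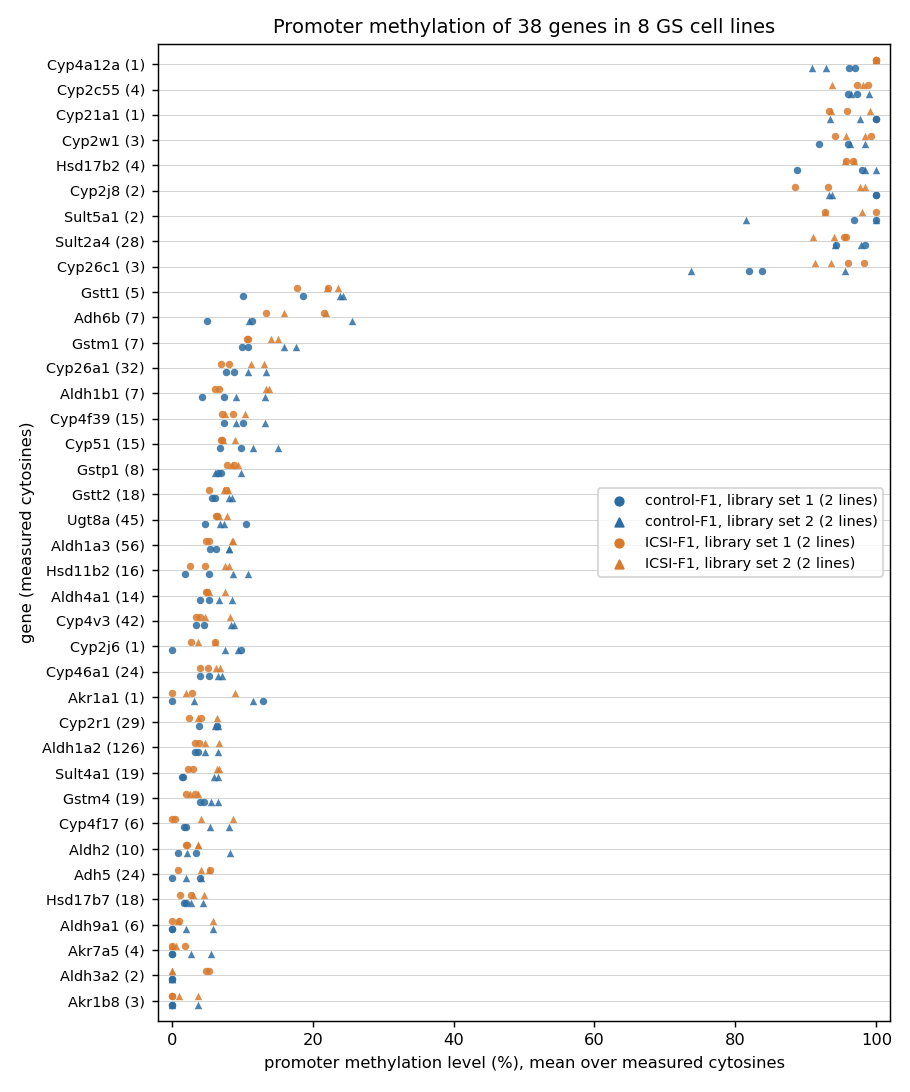
Promoter methylation level in percent (horizontal axis) of each of the 38 genes (vertical axis, with the number of measured cytosines) in 4 control-F1 lines (blue) and 4 ICSI-F1 lines (orange), with circles for library set 1 and triangles for library set 2. The 9 promoters at the top lie between 73.7% and 100% in every line, and every other promoter stays at or below 25.6%.

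The sequences of 5 promoter stretches are shown because they hold the ends of this range: *Gstm1* and *Aldh3a2* had the highest and the lowest level among promoters read within CpG islands, and *Cyp26c1*, *Cyp26a1* and *Sult2a4* were added after their values were seen. They are written 5′ to 3′ on the strand of the gene, from the GRCm38.p6 reference (mm10), with the measured CpGs in capitals. The *Gstm1* stretch is chr3:108017977-108018041 on the minus strand, that of *Aldh3a2* is chr11:61267463-61267492 on the minus strand, and that of *Sult2a4* is chr7:13989905-13990204 on the minus strand. *Cyp26c1* (chr19:37684601-37684675) and *Cyp26a1* (chr19:37697184-37697483) are on the plus strand.
Gstm1: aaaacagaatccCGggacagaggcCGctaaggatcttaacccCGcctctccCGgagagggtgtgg
Aldh3a2: gcgtgcgtcaccCGgccCGccccacccagg
Cyp26c1: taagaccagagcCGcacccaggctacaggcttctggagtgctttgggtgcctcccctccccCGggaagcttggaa
Cyp26a1: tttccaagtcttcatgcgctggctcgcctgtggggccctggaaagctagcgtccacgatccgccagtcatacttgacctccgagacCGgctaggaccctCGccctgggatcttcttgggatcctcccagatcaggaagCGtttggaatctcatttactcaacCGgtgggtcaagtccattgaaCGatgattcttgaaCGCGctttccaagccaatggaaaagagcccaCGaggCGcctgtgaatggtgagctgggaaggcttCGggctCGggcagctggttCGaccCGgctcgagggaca
Sult2a4: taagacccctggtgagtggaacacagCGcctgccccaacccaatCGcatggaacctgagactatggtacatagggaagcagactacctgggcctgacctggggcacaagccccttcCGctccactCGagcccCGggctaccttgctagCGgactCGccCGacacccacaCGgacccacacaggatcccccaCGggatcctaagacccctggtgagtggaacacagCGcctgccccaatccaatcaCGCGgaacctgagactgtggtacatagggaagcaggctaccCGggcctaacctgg
The 24 cytosines read in the *Sult2a4* stretch had levels of 88.3% to 99.3%, and the 26 in the *Cyp26a1* stretch 0.615% to 93.3%. Over 1 kb upstream of the start site, the 9 highly methylated promoters held a median of 14 CpGs and the 25 promoters under 10% a median of 25. Over all genes the medians were 13 and 36.

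Retinoic acid metabolism was represented by *Aldh1a2* and *Aldh1a3*, whose enzymes make retinoic acid, and by *Cyp26a1* and *Cyp26c1*, whose enzymes break it down. *Aldh1a2* was the most deeply read promoter, with a level of 4.63% ± 1.45 (SD, n = 4) in the control-F1 lines and 4.64% ± 1.52 in ICSI-F1 lines over its 126 cytosines, and *Aldh1a3* had 7.004% ± 1.35 and 6.85% ± 2.04. The promoter of *Cyp26a1* had 7.71%, 8.83%, 13.4% and 10.8% in control-F1 lines 29, 37, 44 and 45, and 8.14%, 7.04%, 13.1% and 11.2% in ICSI-F1 lines 11, 17, 20 and 21. The groups overlapped there, and in each group the lines of library set 2 were the higher ones.

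*Cyp26c1*, whose start site lies 12.2 kb from that of *Cyp26a1*, was highly methylated at the 3 cytosines read in an island shore 918 to 968 bases upstream. Its levels were 82.0%, 83.8%, 95.6% and 73.7% in the control-F1 lines and 96.0%, 98.2%, 91.3% and 93.6% in the ICSI-F1 lines. Line 44 was as high as the ICSI-F1 lines, so that the groups overlapped. This was the largest difference among the 38 promoters, 11.01 percentage points (83.7% ± 9.02 against 94.8% ± 2.98, SD, n = 4), and it did not pass the test (log2 ratio of methylated to unmethylated reads, 1.45 ± 0.68 SE, limma unadjusted p = 0.0598, Benjamini-Hochberg adjusted p = 0.999). The difference was 14.2 points within library set 1 and 7.83 within set 2. It was largest at the cytosine at position 37684663, which lies in a CCGG and had 72.5% ± 19.2 in the control-F1 lines and 91.3% ± 3.15 in ICSI-F1 lines. Without that cytosine the difference was 7.11 points.

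The steroid genes were split in the same way. *Cyp21a1*, the steroid hydroxylase of glucocorticoid synthesis in the adrenal cortex, was read at 1 cytosine, which had 100% in lines 29 and 37, 93.4% in line 44 and 97.7% in line 45, and 93.3% to 99.1% in the ICSI-F1 lines. It has a near-identical pseudogene, so that reads can be placed on either copy. *Hsd17b2*, which inactivates estradiol and testosterone, had 98.0%, 88.7%, 98.4% and 100% in the control-F1 lines and 95.6%, 96.7%, 96.9% and 95.6% in ICSI-F1 lines. By contrast *Hsd11b2*, which inactivates glucocorticoids, and *Hsd17b7*, which acts in cholesterol and estradiol synthesis, had mean levels of 6.21% and 2.82%. *Hsd17b2* was read 960 to 986 bases upstream of its start site, *Hsd11b2* 43 to 232 and *Hsd17b7* 13 to 71. Gene and distance therefore cannot be told apart in this contrast. None of the 4 steroid genes differed between the groups (limma, unadjusted p = 0.469 to 0.941). The genes of sterol and vitamin D metabolism, *Cyp51* (lanosterol demethylation in cholesterol synthesis), *Cyp46a1* (cholesterol hydroxylation in brain) and *Cyp2r1* (the vitamin D hydroxylase of liver), were under 10%, and the mean of the ICSI-F1 lines was the lower at all 3. *Cyp51* had 6.88%, 9.83%, 15.1% and 11.5% in the control-F1 lines and 6.97%, 7.14%, 8.91% and 7.34% in ICSI-F1 lines. The groups overlapped, and the difference of −3.24 points did not pass the test (log2 difference −0.88, limma unadjusted p = 0.116). The log2 difference was −1.40 without line 29 (unadjusted p = 0.00399, adjusted p = 0.999) and −0.57 without line 44 (unadjusted p = 0.3005).

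Among the 8 CYP genes of fatty acid and foreign compound oxidation, 4 were highly methylated and 4 were under 10%, with none between. *Cyp4a12a*, a fatty acid hydroxylase of kidney and liver, was read at 1 cytosine 995 bases upstream (position 115298051 on chromosome 4). It had 97.0%, 96.1%, 90.9% and 92.9% in the control-F1 lines and 100% in all 4 ICSI-F1 lines, so that the groups did not overlap. The ICSI-F1 values rest on 12 to 17 reads once the scaling of coverage was undone, and a count of 0 unmethylated reads at that depth allows up to 17.6% to 25.0%. The difference of 5.80 points did not pass the test (limma, unadjusted p = 0.152). *Cyp2c55* had 93.7% to 99.0% over the 8 lines and *Cyp2w1* had 91.9% to 99.2%. *Cyp2j8* had 100%, 100%, 93.7% and 93.3% in the control-F1 lines and 93.2%, 88.5%, 97.6% and 98.4% in ICSI-F1 lines. Its difference was −9.17 points within library set 1 and 4.52 within set 2. *Cyp2j6*, of the same family, has its start site 46.3 kb away. It had 5.71% at its only cytosine, against 95.6% for *Cyp2j8*, with *Cyp2j8* higher in 8 of 8 lines. The cytosine of *Cyp2j6* lies 7 bases upstream of its start site and the 2 of *Cyp2j8* lie 801 and 950 bases upstream. The 2 levels are therefore not of matched positions.

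The other conjugating and reducing enzymes were mostly low. Of the sulfotransferases, *Sult5a1* and *Sult2a4* had 95.2% and 95.1%, and *Sult4a1*, which is expressed in brain, had 4.25%. At *Sult5a1* line 45 stood alone at 81.6%, and the other 7 lines had 92.7% to 100%. *Sult2a4* codes for a hydroxysteroid sulfotransferase of a family with close paralogs, so its reads may be shared with them. Of its 28 cytosines all had a mean over 80%, with 91.0% to 98.4% per line for the promoter. The only UGT, *Ugt8a*, which makes galactosylceramide for myelin, had 7.10% over 45 cytosines. Of the 5 GST genes, *Gstp1*, *Gstt2* and *Gstm4* were under 10% and *Gstm1* and *Gstt1* were at 13.1% and 20.3%. The Aldh family ranged from 1.28% at *Aldh3a2* to 9.24% at *Aldh1b1*, and *Adh5*, the formaldehyde-oxidising alcohol dehydrogenase, had 3.22%. *Adh6b* had 11.4%, 5.01%, 25.6% and 10.9% in the control-F1 lines and 13.4%, 21.6%, 21.9% and 15.9% in ICSI-F1 lines, a difference of 5.01 points with overlapping groups (limma, unadjusted p = 0.150). It was 9.32 points within library set 1 and 0.690 within set 2. All 3 aldo-keto reductases were under 10%.

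By annotation the 627 cytosines comprised 385 in CpG islands (61.4%, against 76.7% of all cytosines), 94 in island shores and 148 outside islands, shores and shelves. At the 148 cytosines outside islands the level was 34.1% ± 1.62 (SD, n = 4) in the control-F1 lines and 33.7% ± 0.573 in ICSI-F1 lines, against 20.5% ± 1.89 and 20.9% ± 1.44 over all such cytosines. *Sult2a4* alone supplied 28 of the 148, at 96.2% in the control-F1 lines and 94.1% in ICSI-F1 lines. The level without this gene was not computed, so the excess over all such cytosines cannot be read as general to these promoters. In islands it was 5.68% ± 1.53 and 5.29% ± 1.37. Of the 56 cytosines at 80% or more, 5 lay in islands, 5 in shores and 46 outside both, 28 of the 46 at *Sult2a4*. By GENCODE M21, 601 of the cytosines were intergenic, and the other 26 lay in transcripts of other genes, which were an intron of *Gm20388* (*Sult5a1*), an intron of *Gm21969* (*Aldh4a1*) and an exon of *Gm42879* (*Aldh2*).

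The pentamer GCGTG is the core of the element that the aryl hydrocarbon receptor and ARNT bind. It was looked for on both strands because these gene families include targets of that receptor. Which of the 38 genes are targets was not tested. It occurred within 1 kb upstream at 63.2% of the 38 promoters and 71.1% of all promoters. Cytosines measured inside it numbered 22 in 10 of the genes. Of these, 18 were under 10% and the other 4, at *Cyp2w1* and *Sult2a4*, were at 80% or more. Over all genes 97.1% of the cytosines measured inside GCGTG were under 10%, against 81.8% here.

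Nearly all intermediate levels stood at a particular sequence. Within promoters that were otherwise low, 40 cytosines lay over 20 points above their promoter's median, and all 40 were the inner cytosine of a CCGG, the site that MspI cuts. Cytosines of CCGG made up 119 of the 627 (19.0%, against 17.1% of all cytosines). Of them 54 were under 10%, 44 between 10% and 80% and 21 at 80% or more, whereas of the 508 others 471 were under 10%, 2 between and 35 at 80% or more. The 2 others between 10% and 80% were both at *Adh6b*. The pattern was general: 95.7% of the cytosines between 10% and 80% lay in CCGG here, and 88.1% over all genes.

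At CCGG the strands of a CpG also differed. Of the 249 CpGs read on both strands, 21, in 15 of the genes, differed by more than 20 points between the strands, and all 21 lay in CCGG. They were 61.8% of the 34 CCGG read on both strands, while 0 of the 215 other CpGs differed by that much. Among all genes, 5559 of the 5570 such CpGs (99.8%) lay in CCGG. At 8 of the 21 the higher strand was at 80% or more. The following 25 bases surround the higher cytosine, 5′ to 3′ on its own strand and with CCGG in capitals, and are shown for 5 of the 10 CpGs with the highest levels among the 21, chosen after their values were seen. They are chr9:71215633-71215657 on the minus strand (*Aldh1a2*), chr5:4104809-4104833 (*Cyp51*), chr19:37697458-37697482 (*Cyp26a1*), chr10:75798863-75798887 (*Gstt1*) and chr8:105518565-105518589 (*Hsd11b2*), the last 4 on the plus strand.
Aldh1a2: cgcgggcgcgcCCGGgggggcctcg
Cyp51: gagctggcggcCCGGgcaccgcccc
Cyp26a1: gctggttcgacCCGGctcgagggac
Gstt1: aaggtattcctCCGGgacctacaag
Hsd11b2: gggactttgttCCGGcttcttcgaa
At *Aldh1a2* the cytosine shown had 96.6% to 100% in the 8 lines and its partner on the other strand 0% to 6.98%. At *Cyp51* the values were 93.0% to 100% and 0% to 7.81%. The cytosine of *Gstt1* had 73.2%, 41.5%, 90.5% and 94.3% in the control-F1 lines and 76.2%, 90.6%, 93.3% and 97.4% in ICSI-F1 lines, with 0% to 8.16% on the other strand. At *Hsd11b2* it had 66.1%, 18.8%, 78.9% and 84.8% in the control-F1 lines and 56.2%, 30.2%, 78.3% and 79.4% in ICSI-F1 lines. In 17 of the 21 the mean of library set 2 was above that of set 1, and in 9 every line of set 2 was above every line of set 1, as at *Hsd11b2* and *Gstm1*. The higher cytosines had 13 to 122 scaled reads per line and their partners 38 to 211. RRBS libraries fill in the ends that MspI leaves, and whether this had a part in these values was not tested.

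**Figure D2:**
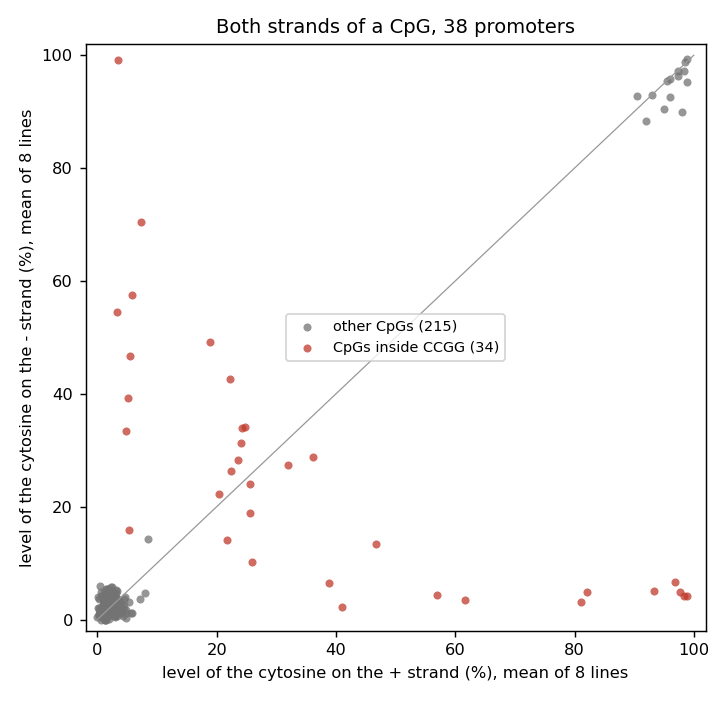
Mean level over the 8 lines of the cytosine on the plus strand (horizontal axis, %) against that on the minus strand (vertical axis, %) for the 249 CpGs of the 38 promoters read on both strands, with the 34 CpGs inside CCGG in red and the 215 others in grey. The grey points sit near the diagonal at either end, and 21 red points lie more than 20 points from it.

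Promoter levels were therefore also computed without the cytosines of CCGG, which left 33 of the 38 genes. Then 26 were under 10%, 1 between 10% and 80% (*Adh6b*, 10.3%) and 6 at 80% or more, or 18.2% of the 33 against 5.92% of all 8480 genes left. *Gstt1* moved from 20.3% to 4.21%, *Gstm1* from 13.1% to 1.159%, *Cyp26a1* from 10.0% to 2.43% and *Cyp51* from 9.21% to 2.73%. The levels of the highly methylated promoters that could still be computed were 92.9% to 97.3%. *Cyp4a12a*, *Cyp2j8* and *Sult5a1*, as well as *Cyp2j6* and *Akr1a1*, had no other cytosine, and their levels rest on CCGG alone.

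**Figure D3:**
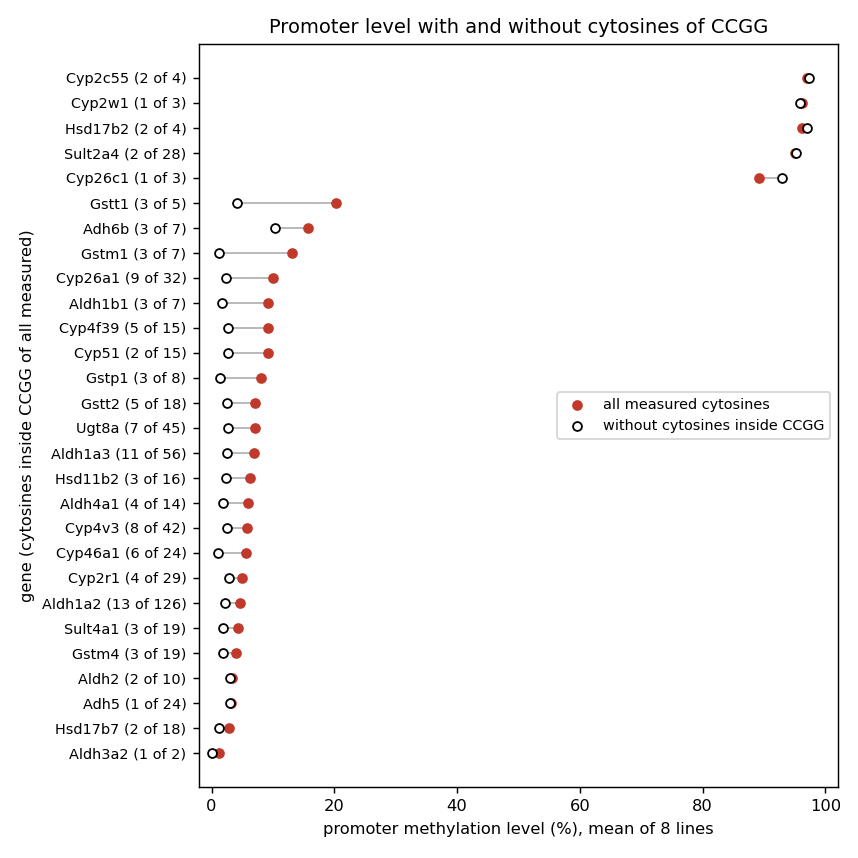
Mean promoter level over the 8 lines (horizontal axis, %) with all measured cytosines (red) and without those inside CCGG (open circles) for the genes that had both kinds (vertical axis, with the number of CCGG cytosines of all measured). *Gstt1* falls from 20.3% to 4.21% and *Cyp26a1* from 10.0% to 2.43%, whereas the 5 highly methylated promoters stay at 92.9% or more.

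**Figure D4:**
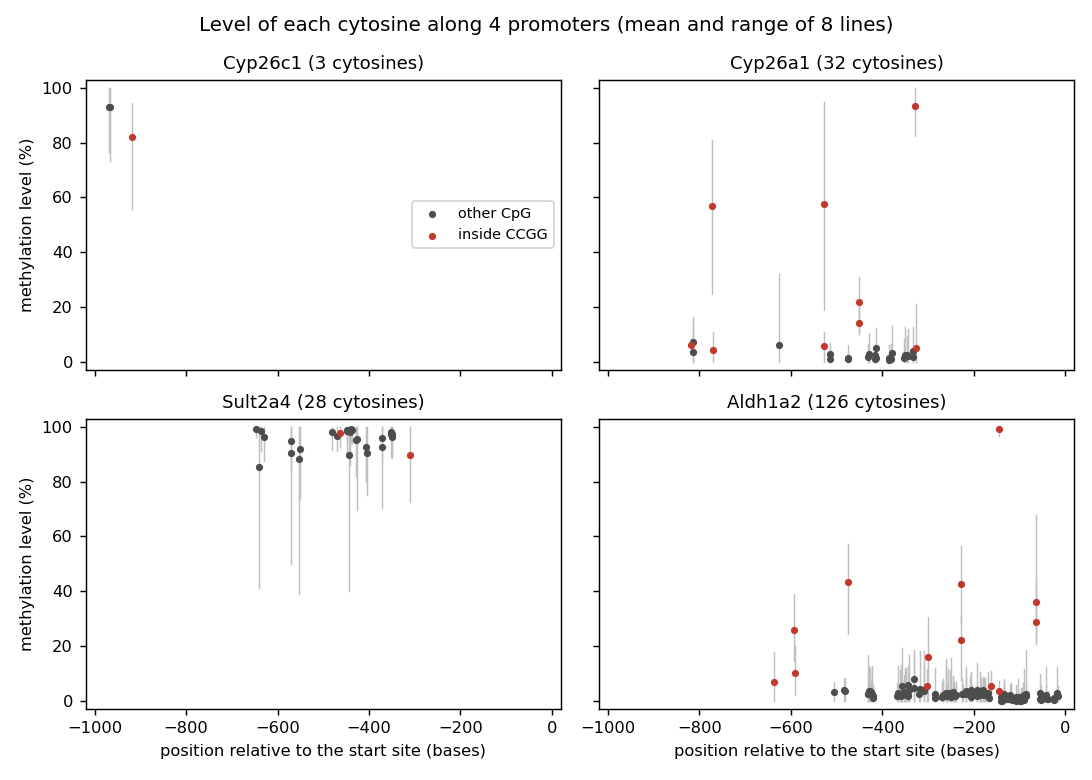
Methylation level in percent (vertical axis) of each cytosine against its position relative to the start site in bases (horizontal axis) in 4 promoters, with points for the mean and grey bars for the range of the 8 lines, and CCGG cytosines in red. At *Aldh1a2* and *Cyp26a1* the cytosines above 10% are red, and at *Sult2a4* all cytosines lie above 80%.

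The main comparison asked whether promoter methylation differed between ICSI-F1 and control-F1 GS cells. The mean level over the 627 cytosines was 13.1% ± 1.55 (SD, n = 4) in the control-F1 lines and 12.7% ± 1.25 in ICSI-F1 lines, and over all cytosines it was 7.66% ± 1.49 and 7.51% ± 1.22. The difference of −0.332 points was smaller than the SD between lines in either group. It was 0.291 points without line 44 and 0.0612 without line 11, so that its sign depended on single lines. As a mean over the 38 genes it was 0.147 points.

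At the level of genes, 15 promoters had the higher mean in ICSI-F1 and 23 (60.5%) the lower, against 55.4% lower among all genes. No member passed a false discovery rate of 0.05 in limma, and neither did any of the 9224 genes (0.0%). At an unadjusted p under 0.05 there were 2, against 3.23% of all genes. *Gstm4* had 4.51%, 3.96%, 6.52% and 5.51% in the control-F1 lines and 3.34%, 2.04%, 2.53% and 3.77% in ICSI-F1 lines, and every ICSI-F1 line was below every control-F1 line (−0.74 ± 0.32 SE on the log2 scale, limma unadjusted p = 0.0430, adjusted p = 0.999). Its difference was −2.21 points, with −10.9 points at each strand of the CCGG at positions 108044931 and 108044932. Without CCGG cytosines it was −1.20 points, and on the log2 scale −1.14 ± 0.96 SE (limma, unadjusted p = 0.247), a larger estimate with a larger error. *Aldh3a2*, the fatty aldehyde dehydrogenase, was at 0% in the 4 control-F1 lines and in ICSI-F1 lines 20 and 21, and at 5.36% and 4.90% in lines 11 and 17 (limma, unadjusted p = 0.0171, adjusted p = 0.999). The difference was 5.13 points within library set 1 and 0 within set 2. All of it stood at the CCGG cytosine at position 61267480, with 10.7% in line 11 and 9.80% in line 17, and the other cytosine was at 0% in every line. It was read at 2 cytosines with 28 to 112 reads per line in all, and a count of 0 allows up to 2.68% to 10.7% in the control-F1 lines. Groups of lines did not overlap at 2 of the 38 promoters (all genes, 1.46%), which were *Cyp4a12a* (higher in ICSI-F1, as were 0.672% of all genes) and *Gstm4* (lower, as were 0.791%).

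**Figure D5:**
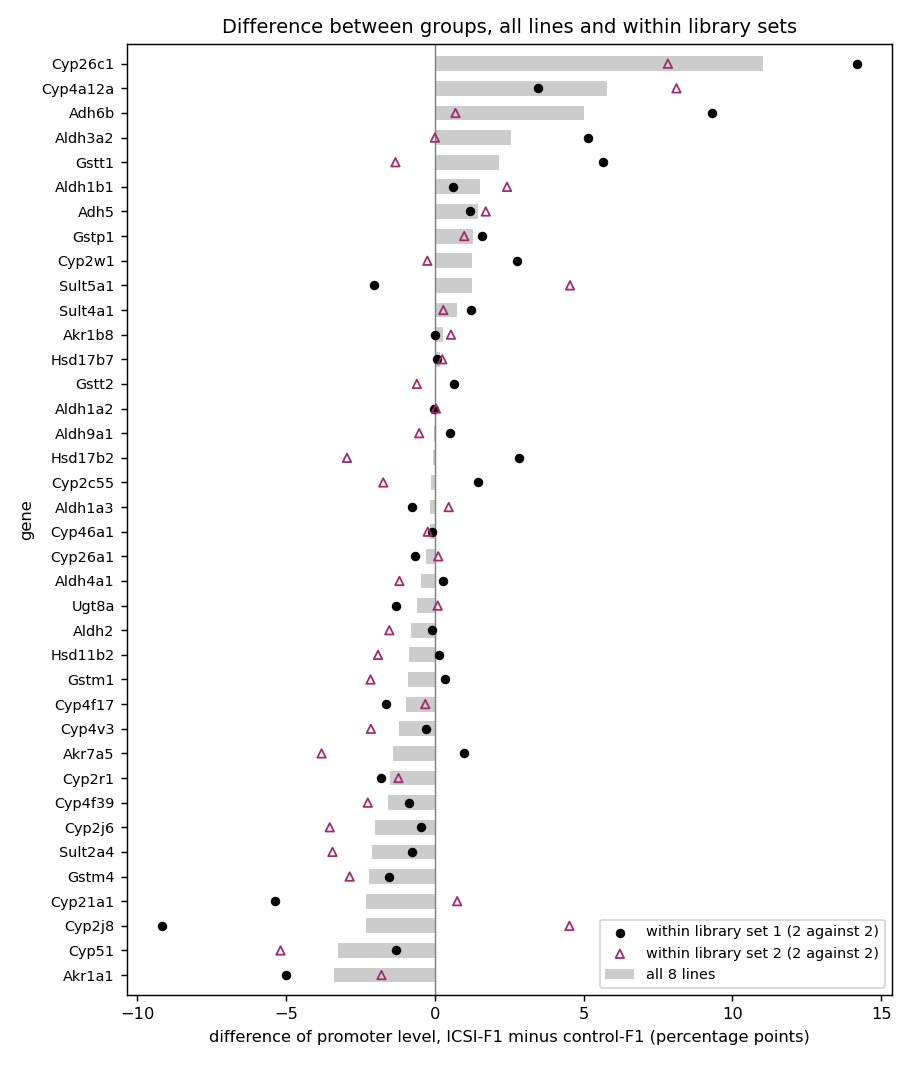
Difference of promoter level between ICSI-F1 and control-F1 lines in percentage points (horizontal axis) for each of the 38 genes (vertical axis), as grey bars over all 8 lines, black circles within library set 1 and open triangles within library set 2. *Cyp26c1* stands at 11.01 points, *Cyp2j8* has opposite signs in the sets, and most bars lie within a few points of 0.

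Of the remaining promoters with the largest differences, *Akr1a1* (−3.40 points) was read at 1 cytosine and had 0%, 12.96%, 3.09% and 11.5% in the control-F1 lines and 2.94%, 0%, 2.08% and 8.96% in ICSI-F1 lines. The groups overlapped, with 2 control-F1 lines above all ICSI-F1 lines (limma, unadjusted p = 0.456). *Gstt1* had 18.7%, 10.1%, 24.4% and 23.9% against 17.8%, 22.2%, 23.6% and 22.02%, a difference of 2.16 points with overlapping groups. Without CCGG cytosines its difference turned to −4.59 points (6.51% ± 3.22 against 1.91% ± 1.11, limma unadjusted p = 0.0516). For *Cyp2j8* and *Cyp21a1* the difference was −2.32 points each.

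The study called differences over 20 points and left out cytosines where any line went the other way. This was read here as a difference of group means over 20 points with every ICSI-F1 line to the same side of the mean of the control-F1 lines. No cytosine of these promoters met it, while 0.274% of all cytosines met it as higher and 0.0506% as lower (0.324% in either direction). On the stricter reading that every ICSI-F1 line lies beyond every control-F1 line, 137 of all cytosines were higher and 18 lower, again with 0 in these promoters. The counts that the study reports, over a somewhat larger set of cytosines, are nearer to this stricter reading. With 10 points in place of 20, 3 were higher and 6 lower (all cytosines, 0.841% and 0.519%). Of these 9, 7 lay in CCGG. Over all cytosines 1145 of the 1713 higher and 515 of the 1057 lower lay in CCGG. The largest differences were 18.8 points at position 37684663 of *Cyp26c1* and −20.2 points at position 13990050 of *Sult2a4*, where the control-F1 lines were all at 100% and ICSI-F1 lines 11, 17, 20 and 21 at 100%, 83.8%, 95.5% and 40%. Line 11 was level with the control-F1 lines, and the lowest coverage was 10 reads. In a logistic model per cytosine no member passed a false discovery rate of 0.05, nor did any of the 196818 cytosines tested (0.0%), and 57 of 613 (9.30%) had an unadjusted p under 0.05, against 7.06% of all. Of the 57, 20 were higher and 37 lower in ICSI-F1 lines. Over all cytosines at that threshold 5106 were higher and 8793 lower.

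Groups of lines did not overlap at 4 cytosines that were higher and 9 that were lower in ICSI-F1 lines (all cytosines, 0.427% and 0.679%). Of the 9, 6 were upstream of *Cyp2r1*, a group chosen after its values were seen. At position 114563143 of chromosome 7 they were 10.2%, 2.34%, 24.1% and 5.00% in the control-F1 lines and 0% in all ICSI-F1 lines, with 29 to 171 scaled reads. At both positions 114563048 and 114563056 line 29 had 9.68% and line 37 had 4.65%, and the ICSI-F1 lines were at 0%. One read can span these neighbouring cytosines, so the 6 are not independent measurements. Over the whole promoter of *Cyp2r1* the levels were 5.72% ± 1.27 and 4.20% ± 1.67 (SD, n = 4), and the groups overlapped (limma, unadjusted p = 0.289).

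Levels also differed between the library sets. At cytosines under 10% the mean was 1.56% in the set 1 lines (29, 37, 11 and 17) and 3.56% in the set 2 lines (44, 45, 20 and 21), against 1.44% and 3.28% over all cytosines. The mean of set 2 was higher at 31 of the 38 promoters (81.6%, all genes 89.8%), and at 12 every line of set 2 was above every line of set 1 (31.6%, all genes 27.7%). At the 9 highly methylated promoters the means were 95.7% in set 1 and 94.7% in set 2. Each set held 2 lines of each group.

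Of 99 listed receptors, cofactors and transporters that regulate or work beside these enzymes, 33 had promoter cytosines in the table. Of these, 26 were under 10%, 6 between and 1 at 80% or more, and 11 were higher and 22 lower in ICSI-F1 lines. Among all genes 73.7% were under 10%, 18.2% between and 8.15% at 80% or more, and 55.4% were lower in ICSI-F1 lines. The highest were *Mgst2*, a microsomal glutathione transferase (97.9%), and *Nr1h3*, the liver X receptor alpha gene (23.2%). Next were *Ahrr*, the repressor of the aryl hydrocarbon receptor (18.5%), *Mgst3* (16.5%) and *Gsr*, glutathione reductase (15.9%). *Nr1h3* was read at only 1 cytosine, with 7.89% to 33.6% per line. These levels are over all measured cytosines, with any inside CCGG left in. At *Ahrr*, 1 cytosine met the rule of 20 points as higher, in its looser reading. None passed the false discovery rate, and 2 of the 33 had an unadjusted p under 0.05 in limma, against 3.23% of all genes. These were *Cbr3* (limma, unadjusted p = 0.0397), where control-F1 line 45 had 20.9% and the other lines 0% to 2.90%, and *Rxra* (limma, unadjusted p = 0.0355), the retinoid X receptor alpha gene, with 2.55%, 0.749%, 14.3% and 3.97% in the control-F1 lines and 0% in all ICSI-F1 lines over 3 cytosines.

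Cell identity was checked on listed markers. Of 25 promoters that are methylated in most somatic cells and unmethylated in germ cells, 14 were in the table, *Ddx4* and *Dazl* among them. All 14 were under 10%, against 73.7% of all genes, and their mean was 3.05% to 7.90% per line. Of the 14, 9 were lower in ICSI-F1 lines, against 55.4% of all genes. Of 20 spermatogonial genes 10 were in the table, with 7 under 10%, 3 between 10% and 80% and a mean of 6.22% to 10.5% per line. The share under 10% was near that of all genes, so it does not by itself show cell identity. Of the 10, 7 were higher and 3 lower in ICSI-F1 lines. Of 16 fibroblast genes 4 were in the table, *Col1a2* being the highest at 76.2%. It had 66.4% ± 11.9 (SD, n = 4) in the control-F1 lines and 86.0% ± 11.8 in the ICSI-F1 lines over 2 cytosines (limma, unadjusted p = 0.0153, adjusted p = 0.999). Of these 2 cytosines, 1 met the rule of 20 points as higher, in its looser reading. *Col1a1* was also higher in ICSI-F1 lines (2.91 points), and *Tbx15* (−1.52 points) and *Twist1* (−1.20 points) were lower. The mean of the 4 genes was 22.02% to 28.6% per control-F1 line and 23.95% to 32.3% per ICSI-F1 line, and its part in the results above was not tested. In bulk DNA a partial level can stand for some cells methylated on both alleles or all cells methylated on some, which cannot be told apart.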

How the data were processed

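RRBS libraries were made by the authors from GS cell DNA with a Zymo-Seq kit, with 150-base paired reads. Per the labels, reads were trimmed with Trim Galore 0.5.0, aligned to mm10 with Bismark 0.20.0 and counted with methylKit 1.16.0. The supplemental methods of the study name a different version of methylKit. The deposited values are scores: methylated and unmethylated reads per cytosine that methylKit scaled between lines and rounded, so they are not raw counts. Cytosines had at least 10 scaled reads in every line, and promoters were 1000 bases upstream of Ensembl start sites. Reads carried no molecular identifiers, and intervals for 0 (3 counts) cover counting error only.

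The level was methylated over methylated plus unmethylated reads, in percent, and a promoter's level its unweighted mean over cytosines. Unscaled reads summed over these promoters were 26533 to 50949 per line (median coverage of all cytosines, 41.1 to 82.0). Genes were tested with limma 3.58.1 (R 4.3.3) on log2((methylated + 1)/(unmethylated + 1)), and cytosines with a quasi-binomial logistic model whose dispersion was moderated across cytosines, 4 lines against 4, with Benjamini-Hochberg adjustment over the whole table. Both fits were also run on simulated data without a library set effect. Its planted gene changes were larger than any log2 difference of these promoters. Whether the fits find changes of the size seen here was not tested. Library sets are the 2 wordings of the submitters' labels. Each library is a separate numbered GS line, and p-values measure the spread between lines.

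Members, gene lists and tests were chosen with earlier results of these data known. Genes named are the 10 with the largest differences, the 12 with the highest level, the 5 with the widest range, retinoid and steroid genes, the 5 listed regulators and partners with the highest level, any gene with a cytosine past the 20-point rule, and those said to be chosen after their values were seen. Other members are given by their levels to complete a role. Sequences and CCGG sites were read from GRCm38.p6. Alternatives were other coverage minimums, scalings, priors, thresholds, strand joining, library set, CCGG cytosines left out, and each line left out.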

Additional observations from a re-analysis of the deposited data

Results flagged for a closer look

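Values that stood apart from the other 3 lines of their group by Dixon's test of the gap over the range were found at 5 of 76 groups of 4 lines, where chance gives about 1 in 20. In control-F1 lines these were *Sult5a1* in line 45, at 81.6% against 96.9% to 100%, *Cyp2r1* in line 37, at 3.83% against 6.14% to 6.52%, and *Akr1b8* in line 45, at 3.70% against 0% in the others. In ICSI-F1 lines they were *Aldh4a1* in line 21, at 7.53% against 4.92% to 5.36%, and *Aldh9a1* in line 20, at 5.89% against 0% to 0.980%. *Sult5a1* was read at 2 cytosines and *Akr1b8* at 3.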

How the results depend on the processing

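No paired analysis was possible because the groups share no line number. The absence of members at a false discovery rate of 0.05 held under every alternative run for genes and for cytosines. Leaving out a line gave 0 to 70 of all cytosines at that rate, 70 without line 44, and 0 of these promoters. Members past the 20-point rule became 3 higher and 6 lower at 10 points, and 1 lower with no exclusion; with a line left out they were 0 to 2 higher and 0 to 1 lower. The exceptions without a line were *Cyp26c1* (lines 37 and 44), *Sult4a1* (44), *Gstt1* (45), *Cyp46a1* (17), *Ugt8a* (29) and *Sult2a4* (11). The 2 genes at an unadjusted p under 0.05 became 0 without CCGG cytosines (chosen after seeing the data), where the log2 difference was 0.41 in place of 1.62 for *Aldh3a2* and −1.14 in place of −0.74 for *Gstm4*, and 0 to 3 with a line left out, 0 without line 11 or 17. The count of genes was 3 with library set as a covariate, with limma on the mean level, and with a prior of 0.5. It was 1 at a coverage of at least 30 in every line. With library set as a covariate, limma gave unadjusted p = 0.00316 for *Aldh3a2* (adjusted p = 0.582) and 0.00920 for *Gstm4* (adjusted p = 0.730). In the logistic model with that covariate, 102 member cytosines had an unadjusted p under 0.05 in place of 57, and 30390 of all cytosines in place of 13899. The sign turned for *Gstt1* on the mean level (2.16 points), within set 2 (−1.33 points) and with a line left out (−0.19 to 0.13 on the log2 scale), and within set 2 for *Cyp2j8* (4.52 points) and *Cyp21a1* (0.748 points). The difference of the mean over the cytosines was −0.854 to 0.291 points with a line left out, −0.0821 within set 1 and −0.581 within set 2. The cause of these changes was not tested. Depth limits *Cyp4a12a*, where a line had 10 to 27 reads and a count of 0 allows a share of up to 11.1% to 30.0%.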
